A study of Mus musculus with 20 samples.

Results

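The numbered orphan G protein-coupled receptors are the genes whose symbol is Gpr followed by a number, 1 such gene being left out of the set in advance. The rule found 72 genes among the 22048 of the count tables, the same 72 in both datasets, and it used no measured value. They were followed in the arcuate nucleus, the part of the hypothalamus that holds the AgRP and POMC neurons of appetite control, which was cut whole from brain sections by laser. Male C57BL6/J mice, given as 10 weeks old, went through acclimatization and baseline measurements before treatment. They then drank corticosterone (Cort, the main glucocorticoid of rodents) at 75 µg/ml in 1% ethanol, or 1% ethanol alone (vehicle). Treatment lasted 2 days or 4 weeks. The mice of the 4 week dataset, vehicle and Cort alike, were fasted for 16 h and refed for 24 h before they were killed, and treatment went on throughout. Each dataset held 5 vehicle and 5 Cort samples, of which the study kept 3 and 4 after a principal component analysis. The samples left out are named by their column labels: vehicle C07 and C09 and Cort C08 at 2 days, vehicle C01 and C05 and Cort C06 at 4 weeks. Values below are for the kept samples unless said otherwise, and the others are printed beside every result that turns on them.

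G protein-coupled receptors cross the membrane with 7 helices and pass a signal from outside the cell to G proteins, which raise or lower cyclic AMP through adenylyl cyclase or act through calcium and phospholipids. A numbered receptor is one that was found by its sequence before any ligand was known, and for many of them none is agreed to this day. Some signal with no ligand at all: Gpr12 and its close relative Gpr3 keep adenylyl cyclase active by themselves. Other members carry the name but sit in the Golgi apparatus or the lysosome and do not act as surface receptors.

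The kept 2 day libraries held 2487063 to 5748223 counts each and the kept 4 week libraries 1837715 to 5196364, so that 3 counts, taken here as the floor of detection, correspond to between 0.512 and 1.19 CPM (counts scaled to the size of the library) at 2 days and between 0.619 and 1.55 CPM at 4 weeks. Such floors cover counting error only, because the RNA was amplified. The markers Agrp, Npy and Pomc had counts in each kept sample. Markers of the neighbouring ventromedial nucleus (Nr5a1, Fezf1, Adcyap1) summed to at most 33.04 CPM at 2 days and 11.7 CPM at 4 weeks. Summed CPM of Agrp, Npy and Pomc did not overlap between kept vehicle and Cort samples in either dataset: it was 665 to 1027 in vehicle and 1198 to 1625 in Cort at 2 days, and 663 to 1047 in vehicle and 288 to 610.2 in Cort at 4 weeks. Over all 10 samples it overlapped in both, as vehicle reached 1625 at 2 days and 203 at 4 weeks. In tissue of mixed cells, fewer cells of a type and less RNA per cell cannot be told apart.

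To show where transcription of the members discussed most begins, the 250 bases before the start site are given for 4 of them, read 5′ to 3′ on the strand of the gene from RefSeq's promoter table for GRCm38.p6. Of the 72 members, 51 had an entry there. Each window was searched on both strands for the half-site of the glucocorticoid receptor (AGAACA), for the whole element (AGAACA followed by any 3 bases and TGTTCT), for the cyclic AMP response element TGACGTCA and for its half-site TGACG, which the whole element contains. Capitals mark a match.
Gpr12: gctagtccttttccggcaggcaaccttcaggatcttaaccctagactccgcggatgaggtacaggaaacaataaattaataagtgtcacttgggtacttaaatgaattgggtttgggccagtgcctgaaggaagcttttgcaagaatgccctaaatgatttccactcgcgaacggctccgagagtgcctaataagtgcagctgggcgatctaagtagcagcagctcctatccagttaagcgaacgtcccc
Gpr50: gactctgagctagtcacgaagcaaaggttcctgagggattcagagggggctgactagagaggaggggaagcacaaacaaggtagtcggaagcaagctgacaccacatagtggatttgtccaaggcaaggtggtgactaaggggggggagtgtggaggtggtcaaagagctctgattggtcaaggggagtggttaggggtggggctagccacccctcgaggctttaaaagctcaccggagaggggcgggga
Gpr173: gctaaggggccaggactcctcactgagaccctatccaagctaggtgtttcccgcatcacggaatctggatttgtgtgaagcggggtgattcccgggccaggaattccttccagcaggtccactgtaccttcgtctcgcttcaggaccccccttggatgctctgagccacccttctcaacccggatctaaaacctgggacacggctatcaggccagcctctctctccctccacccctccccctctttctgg
Gpr101: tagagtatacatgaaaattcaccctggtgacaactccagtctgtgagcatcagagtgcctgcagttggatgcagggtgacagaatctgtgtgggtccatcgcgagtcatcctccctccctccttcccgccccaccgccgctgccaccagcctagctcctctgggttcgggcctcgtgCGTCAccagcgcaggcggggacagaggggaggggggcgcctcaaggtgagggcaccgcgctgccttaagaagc
The Gpr12 window is chr5:146585240-146585489 on the minus strand, that of Gpr50 is chrX:71663417-71663666 on the plus strand, and those of Gpr173 and Gpr101 are chrX:152368719-152368968 and chrX:57503758-57504007 on the minus strand. The Gpr12, Gpr50 and Gpr173 windows held none of these letters. The Gpr101 window held 1 half-site of the cyclic AMP element, written as its reverse complement. Among all 32851 promoter windows of this length, 16.1% held AGAACA, 17.8% held TGACG, 1.55% held TGACGTCA and 0.00913% held the whole glucocorticoid element. The 51 members with an entry had 67 such windows, of which 10 held AGAACA, 14 held TGACG and none held either whole element. Counted by member, 10 held AGAACA in at least 1 window and 13 held TGACG. A match or its absence describes these letters only.

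Few of the receptors carried most of the signal. A mean above 5 CPM over the 7 kept samples was reached by 37 of 72 members at 2 days and by 35 at 4 weeks, with 33 above it in both datasets. Those that passed it at 2 days only included Gpr62, Gpr61 and Gpr149, Gpr55 and Gpr21 passed it at 4 weeks only, and 33 members passed it in neither. At 2 days Gpr149 (mean 5.02 CPM) and Gpr61 (5.51 CPM) lay just above the limit and Gpr3 (3.64 CPM) was the next below it. At 4 weeks Gpr34 (8.61 CPM) was the lowest above it, while Gpr61 (4.91 CPM) and Gpr119 (4.90 CPM) were among those just under it. Some of these 4 week means rested on few samples. Gpr119 had 32.5 CPM in Cort C09, 1.84 in Cort C10 and no count in the other kept samples. Gpr34 had 38.2 CPM in Cort C07, 12.1 in vehicle C04 and at most 4.12 in the others. Gpr55 had no count in vehicle C03, vehicle C04 or Cort C07. In each of the 14 kept samples 20 members exceeded 5 CPM, and in each of all 20 samples 12 did. The 5 highest members made up 58.5% of the summed CPM of the set at 2 days and 55.9% at 4 weeks. No count at all was found in any of the 20 samples for Gpr142, Gpr15, Gpr152, Gpr31b, Gpr33 and Gpr39. For Gpr31b, 87.6% of its 50-base stretches also occur in transcripts of other genes. For Gpr39, 39.9% of its exon bases also lie in exons of Lypd1. How such reads were assigned is not known, so for these a lack of counts need not mean a lack of transcript.

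Per kilobase of exon, the scale on which genes of different length can be set side by side, Gpr101 and Gpr165 led at 2 days with means of 81.3 and 73.98 CPM per kb, and their ranges over the samples overlapped (59.5 to 97.9 and 62.7 to 89.7). Gpr37l1 followed with 49.7 CPM per kb, then Gpr27 with 35.4, Gpr158 with 22.4 and Gpr50 with 15.9. At 4 weeks the order on this scale was Gpr50 (88.3 CPM per kb, range 32.6 to 167), Gpr165 (84.1), Gpr101 (52.2), Gpr37l1 (42.7), Gpr19 (24.1) and Gpr158 (22.4). Each of these neighbours overlapped in range at 4 weeks. The place of Gpr19 rested on 1 Cort sample at 258.5 CPM, the other kept samples of its range reaching down to 8.57 CPM.

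**Figure D1:**
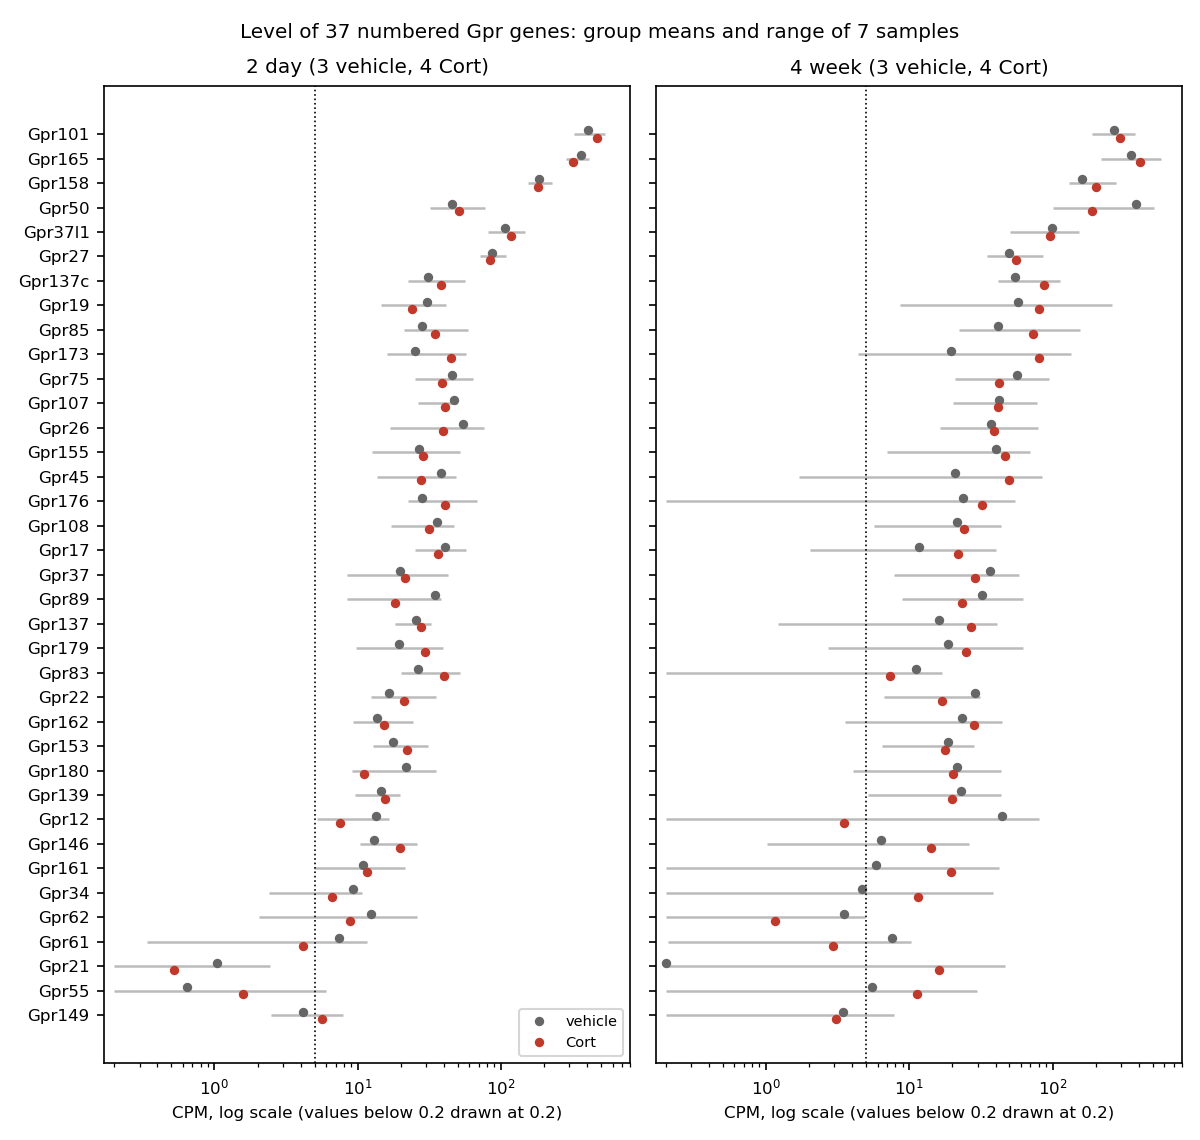
Level of 37 numbered Gpr genes whose mean exceeded 5 CPM in either dataset, on a log axis in CPM, with the 2 day dataset at the left and the 4 week dataset at the right. Grey and red points are the means of 3 vehicle and 4 Cort samples, grey lines run from the lowest to the highest of the 7 samples, and the dotted line is at 5 CPM. Gpr101, Gpr165 and Gpr158 lie above 100 CPM in both panels, and the lines are longer at 4 weeks.

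Levels by family are given as mean ± SD over 3 vehicle and 4 Cort samples. Of 22 members listed as neuronal receptors with the rhodopsin fold, 17 exceeded 5 CPM at 2 days and 14 at 4 weeks. The list also holds Gpr50 and Gpr62, known from tanycytes and oligodendrocytes, so these counts are not of neurons alone. Gpr101, a receptor that signals through Gs without a known ligand and is best known from human growth disorders of the pituitary, averaged 404 ± 74.5 CPM in vehicle and 467 ± 53.97 in Cort at 2 days, and 266 ± 69.9 CPM in vehicle and 294 ± 69.1 in Cort at 4 weeks. Gpr165, an X-linked orphan, averaged 360.1 ± 20.1 CPM in vehicle and 318 ± 59.7 in Cort at 2 days, and 351 ± 84.2 CPM in vehicle and 406 ± 152 in Cort at 4 weeks. Gpr50, a relative of the melatonin receptors that does not bind melatonin and marks tanycytes in the hypothalamus, averaged 45.7 ± 10.3 CPM in vehicle and 51.04 ± 18.997 in Cort at 2 days, and 382 ± 119.9 CPM in vehicle and 188 ± 71.9 in Cort at 4 weeks. The vehicle level of Gpr50 thus stood far apart in the 2 datasets, which also differed in section thickness, laser, sequencer and feeding, so that time and these cannot be told apart.

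The other receptors of this class were lower. Gpr26, an orphan of the brain with activity of its own, averaged 54.7 ± 18.2 CPM in vehicle and 39.5 ± 24.4 in Cort at 2 days, and 37.2 ± 23.4 CPM in vehicle and 39.002 ± 27.7 in Cort at 4 weeks. Gpr75 averaged 45.5 ± 17.9 CPM in vehicle and 38.6 ± 15.5 in Cort at 2 days, and 56.1 ± 32.9 CPM in vehicle and 42.4 ± 27.8 in Cort at 4 weeks. Gpr176, known from the circadian clock of the suprachiasmatic nucleus, averaged 27.9 ± 5.81 CPM in vehicle and 40.9 ± 18.7 in Cort at 2 days, and 23.6 ± 20.5 CPM in vehicle and 32.3 ± 18.1 in Cort at 4 weeks. Gpr83, for which a neuropeptide ligand has been proposed, averaged 26.2 ± 10.3 CPM in vehicle and 39.7 ± 10.3 in Cort at 2 days, and 11.2 ± 9.66 CPM in vehicle and 7.30 ± 4.77 in Cort at 4 weeks. Gpr45 averaged 38.04 ± 5.68 CPM in vehicle and 27.7 ± 15.8 in Cort at 2 days, and 20.9 ± 17.1 CPM in vehicle and 49.6 ± 31.1 in Cort at 4 weeks, and Gpr19 averaged 30.4 ± 8.12 CPM in vehicle and 23.8 ± 11.95 in Cort at 2 days, and 57.3 ± 31.99 CPM in vehicle and 80.4 ± 119 in Cort at 4 weeks.

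Below these, Gpr153 averaged 17.6 ± 2.42 CPM in vehicle and 21.9 ± 9.29 in Cort at 2 days, and 18.8 ± 10.7 CPM in vehicle and 17.8 ± 12.1 in Cort at 4 weeks. Gpr22 averaged 16.6 ± 4.37 CPM in vehicle and 20.98 ± 10.2 in Cort at 2 days, and 28.9 ± 2.66 CPM in vehicle and 16.8 ± 10.1 in Cort at 4 weeks, and Gpr162 averaged 13.6 ± 6.71 CPM in vehicle and 15.2 ± 6.61 in Cort at 2 days, and 23.3 ± 18.6 CPM in vehicle and 28.1 ± 12.7 in Cort at 4 weeks. Gpr139, a receptor that responds to aromatic amino acids, averaged 14.6 ± 4.41 CPM in vehicle and 15.4 ± 4.89 in Cort at 2 days, and 22.9 ± 18.4 CPM in vehicle and 19.96 ± 18.4 in Cort at 4 weeks. Gpr62, known from oligodendrocytes, averaged 12.3 ± 11.8 CPM in vehicle and 8.77 ± 10.2 in Cort at 2 days, and 3.48 ± 2.42 CPM in vehicle and 1.16 ± 1.48 in Cort at 4 weeks. Gpr149 averaged 4.16 ± 1.61 CPM in vehicle and 5.66 ± 2.34 in Cort at 2 days, and 3.45 ± 2.99 CPM in vehicle and 3.06 ± 3.48 in Cort at 4 weeks. SDs of this class approached or passed the means in several groups at 4 weeks.

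The SREB receptors, named for their high conservation among vertebrates and their expression in brain, all exceeded 5 CPM in both datasets. Gpr27 averaged 85.8 ± 19.5 CPM in vehicle and 83.5 ± 11.3 in Cort at 2 days, and 49.3 ± 21.05 CPM in vehicle and 55.3 ± 20.7 in Cort at 4 weeks. Gpr85 averaged 28.1 ± 7.14 CPM in vehicle and 34.6 ± 16.9 in Cort at 2 days, and 41.3 ± 20.8 CPM in vehicle and 73.3 ± 57.7 in Cort at 4 weeks. Gpr173, for which the peptide phoenixin has been proposed as a ligand, averaged 25.2 ± 9.66 CPM in vehicle and 44.6 ± 8.37 in Cort at 2 days, and 19.6 ± 23.2 CPM in vehicle and 80.8 ± 35.99 in Cort at 4 weeks. Its vehicle and Cort means differed most among the 3, and its samples are given further on.

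All 3 members listed as glial passed the limit in both datasets. The microglial receptors Gpr34 and Gpr84 are not among them and are counted with the receptors for lipids and metabolites. Gpr37l1, an astrocyte receptor, averaged 107 ± 26.8 CPM in vehicle and 117 ± 24.8 in Cort at 2 days, and 98.6 ± 29.5 CPM in vehicle and 95.5 ± 42.01 in Cort at 4 weeks. Its relative Gpr37, of maturing oligodendrocytes, averaged 19.7 ± 8.22 CPM in vehicle and 21.2 ± 14.8 in Cort at 2 days, and 36.7 ± 13.8 CPM in vehicle and 28.7 ± 21.5 in Cort at 4 weeks. Gpr17, which marks oligodendrocyte precursors about to differentiate, averaged 40.3 ± 15.4 CPM in vehicle and 36.02 ± 11.3 in Cort at 2 days, and 11.7 ± 8.37 CPM in vehicle and 21.8 ± 17.9 in Cort at 4 weeks. Among the class C members, which have a large outer domain, Gpr158 (bound by glycine) averaged 184 ± 38.7 CPM in vehicle and 182 ± 30.2 in Cort at 2 days, and 159.6 ± 36.2 CPM in vehicle and 200.3 ± 61.96 in Cort at 4 weeks. Gpr179, best known from retinal bipolar cells, averaged 19.4 ± 8.65 CPM in vehicle and 29.4 ± 13.1 in Cort at 2 days, and 18.6 ± 16.2 CPM in vehicle and 24.7 ± 25.7 in Cort at 4 weeks.

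Of 10 members counted as intracellular or atypical, 8 passed in each dataset. Gpr107, a protein of the Golgi apparatus, averaged 46.6 ± 3.58 CPM in vehicle and 40.6 ± 10.3 in Cort at 2 days, and 42.2 ± 31.6 CPM in vehicle and 41.7 ± 14.3 in Cort at 4 weeks. Gpr108, its relative in the same compartment, averaged 35.6 ± 4.64 CPM in vehicle and 31.5 ± 14.5 in Cort at 2 days, and 21.5 ± 19.96 CPM in vehicle and 23.999 ± 15.5 in Cort at 4 weeks. Gpr137, of the lysosome, averaged 25.6 ± 7.13 CPM in vehicle and 27.6 ± 4.70 in Cort at 2 days, and 16.1 ± 16.9 CPM in vehicle and 27.003 ± 9.15 in Cort at 4 weeks. Its relative Gpr137c averaged 30.98 ± 7.46 CPM in vehicle and 38.1 ± 11.9 in Cort at 2 days, and 54.7 ± 7.66 CPM in vehicle and 87.2 ± 32.8 in Cort at 4 weeks. Gpr155, a lysosomal sensor of cholesterol, averaged 26.6 ± 15.4 CPM in vehicle and 28.4 ± 16.1 in Cort at 2 days, and 40.2 ± 20.3 CPM in vehicle and 46.6 ± 27.4 in Cort at 4 weeks. Gpr161, which acts in the primary cilium, averaged 10.9 ± 5.46 CPM in vehicle and 11.6 ± 7.05 in Cort at 2 days, and 5.86 ± 8.46 CPM in vehicle and 19.4 ± 17.3 in Cort at 4 weeks. Gpr180 averaged 21.7 ± 11.6 CPM in vehicle and 11.03 ± 2.14 in Cort at 2 days, and 21.6 ± 20.3 CPM in vehicle and 20.2 ± 8.78 in Cort at 4 weeks. Gpr89, a Golgi channel that regulates pH, averaged 34.8 ± 5.10 CPM in vehicle and 18.3 ± 10.2 in Cort at 2 days, and 32.3 ± 27.2 CPM in vehicle and 23.3 ± 10.4 in Cort at 4 weeks. Of its exon bases, 27.9% also lie in exons of Pdzk1 or Gja5, and for Gpr137, 15.4% lie in exons of Bad, and reads from there are not specific to either gene.

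Receptors with a metabolic or immune ligand were mostly near the floor. Of 9 receptors for lipids and metabolites, Gpr34, a receptor of microglia for lysophosphatidylserine, averaged 9.33 ± 1.698 CPM in vehicle and 6.64 ± 2.88 in Cort at 2 days, and 4.66 ± 6.44 CPM in vehicle and 11.6 ± 17.8 in Cort at 4 weeks. Gpr55, a receptor for lysophosphatidylinositol, averaged 0.643 ± 0.942 CPM in vehicle and 1.58 ± 2.93 in Cort at 2 days, and 5.52 ± 9.57 CPM in vehicle and 11.2 ± 12.9 in Cort at 4 weeks. Among the 16 members placed in no family only Gpr146 passed, with 13.03 ± 0.973 CPM in vehicle and 19.6 ± 6.55 in Cort at 2 days, and 6.32 ± 7.06 CPM in vehicle and 14.2 ± 11.9 in Cort at 4 weeks.

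Whether Cort altered these receptors was tested by edgeR's quasi-likelihood test over all genes that passed its filter on low counts. At 4 weeks 38 members were tested, and 5 had an unadjusted P below 0.05: Gpr12 and Gpr50 were lower in Cort, and Gpr173, Gpr137b and Gpr21 were higher. Over all 11211 genes tested, 4.91% had such a P. Gpr137b and Gpr21 had at most 2 counts in any kept vehicle sample and passed the filter through the Cort samples, in which they were higher, so the count of 5 is not read against that share. No member reached a Benjamini-Hochberg adjusted P below 0.1 by edgeR, a limit that 0.0446% of all genes passed. DESeq2 on the same samples gave adjusted P values of 0.055 for Gpr12 and 0.013 for Gpr21, below that limit, which 67 of 15430 genes passed by that tool. The median log2 fold change of the 38 members was 0.17, beside 0.04 over all genes. CPM did not overlap between the kept vehicle and Cort samples for the same 5 members, Gpr137b and Gpr21 included, and for 6.53% of all genes tested. With all 10 samples, 33 members were tested and 2 (Gpr101 and Gpr50) had P below 0.05, beside 4.9% of 10398 genes. None of the 33 then had groups that did not overlap, as 0.942% of all genes did.

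**Figure D2:**
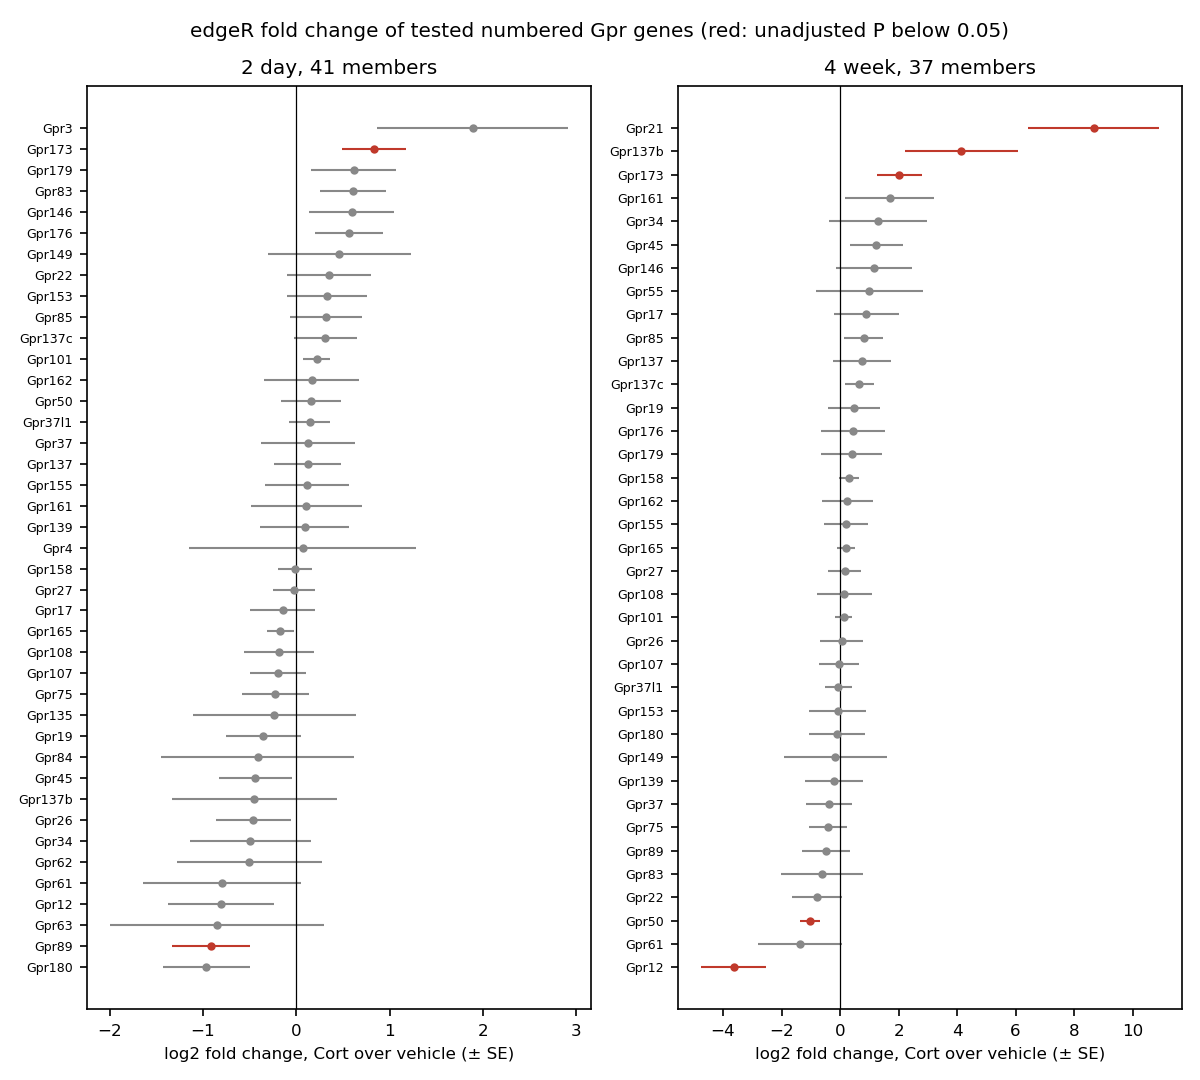
log2 fold change of Cort over vehicle from edgeR for tested numbered Gpr genes, with bars of 1 SE, at 2 days (left, 41 members) and 4 weeks (right, 37 members); red marks an unadjusted P below 0.05 and the scales of the axes differ. Most bars cross or come near 0, with Gpr12 lowest and Gpr21 highest at 4 weeks.

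Gpr12, which raises cyclic AMP without a known ligand and whose loss makes mice gain weight, was lower after 4 weeks of Cort. The gene lies at chr5:146582398-146585239 on the minus strand, with 2 exon blocks of 2512 bases in all and no exon shared with another gene. In the kept vehicle samples C02, C03 and C04 it stood at 80.5, 21.7 and 30.002 CPM. In the kept Cort samples C07, C08, C09 and C10 it stood at 7.84, 2.38, 0 and 3.69 CPM. Each Cort sample was below each vehicle sample, and C09 had no count. Means were 44.1 ± 31.8 CPM in vehicle and 3.48 ± 3.28 in Cort, a log2 fold change of -3.63 ± 1.11 (SE, edgeR, Benjamini-Hochberg adjusted P = 0.92). Counts summed over the kept samples were 359 in vehicle and 60 in Cort. The left-out vehicle samples C01 and C05 stood at 26.6 and 6.71 CPM and the left-out Cort sample C06 at 23.6, so that the groups overlapped over all 10 samples (log2 fold change -2.14 ± 1.09 (SE), Benjamini-Hochberg adjusted P = 0.99). A 2-sided exact permutation test of log2(CPM + 2) gave the smallest value that 3 against 4 samples allow, p = 0.057, and p = 0.048 over all 10 samples, both for Gpr12 alone and not adjusted for the other members. The paper had already reported Gpr12 as lowered in these 4 week samples, and it was singled out with that known. These tests are therefore not independent support.

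The size of the Gpr12 difference depended on single samples. Without vehicle C02, the highest, the log2 fold change was -2.86 and the unadjusted edgeR P was no longer below 0.05, while without Cort C07 it was -4.37 and P stayed below 0.05. It was negative in every fit that was made. At 2 days vehicle samples C02, C04 and C05 had 16.4, 10.6 and 13.4 CPM and Cort samples C01, C03, C06 and C10 had 13.5, 5.72, 5.89 and 5.17. Cort sample C01 lay among the vehicle samples, while the other 3 lay below them (log2 fold change -0.80 ± 0.57 (SE), Benjamini-Hochberg adjusted P = 0.92). The left-out vehicle samples had 6.88 and 17.7 CPM and the left-out Cort sample 3.07 (all 10 samples, log2 fold change -0.94 ± 0.54 (SE), Benjamini-Hochberg adjusted P = 0.95). At 2 days the permutation test gave p = 0.17 over the kept samples and p = 0.048 over all 10, again for Gpr12 alone and not adjusted. Gpr3, its close relative, was at 1.43 ± 1.19 CPM in vehicle and 5.30 ± 3.94 in Cort at 2 days (log2 fold change 1.89 ± 1.02 (SE), Benjamini-Hochberg adjusted P = 0.86) and was too low for the test at 4 weeks, where it averaged 0.451 ± 0.781 CPM in vehicle and 0 ± 0 in Cort.

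Other measures moved between the same groups at 4 weeks. Of Agrp, Npy and Pomc, Npy was lower in Cort (log2 fold change -2.31 ± 0.41 (SE), edgeR, Benjamini-Hochberg adjusted P = 0.097). Agrp gave a log2 fold change of -0.53 ± 0.37 (SE) and Pomc of -0.02 ± 0.32 (SE), neither with an unadjusted edgeR P below 0.05. The sum of the 3 did not overlap among kept samples, as given above. The summed CPM of 5 neuron markers was 2576 to 2691 in vehicle and 2879.7 to 3163 in Cort. That of 6 astrocyte markers was 1354 to 1552 and 1675 to 2187. Neither sum overlapped among kept samples, as 6.53% of all genes tested did not. Singly, 3 of the neuron markers were higher and 2 lower in Cort, none with an unadjusted edgeR P below 0.05. Of the astrocyte markers 4 were higher and 2 lower, 1 of the higher with such a P. Over all 10 samples the neuron sum overlapped, with 2410 to 3274 in vehicle and 2879.7 to 3181 in Cort, and the astrocyte sum did not. Their part in the Gpr12 result was not tested.

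**Figure D3:**
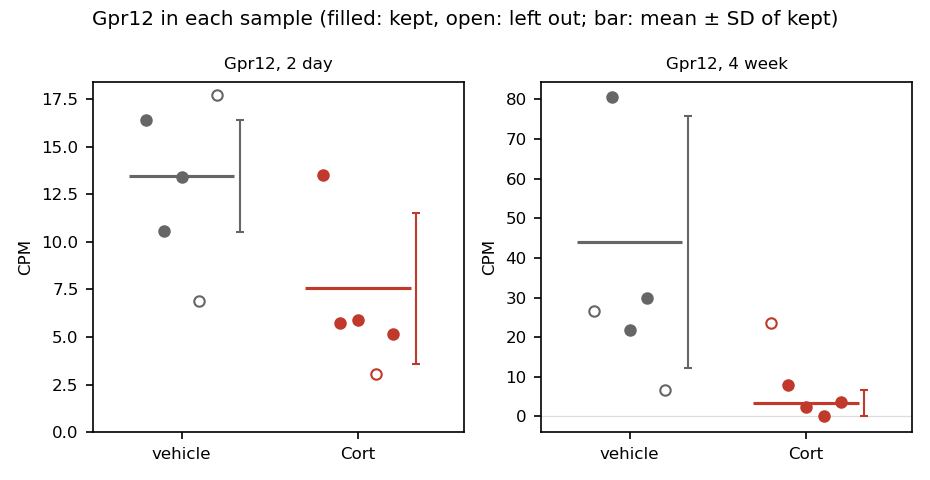
CPM of Gpr12 in each vehicle (grey) and Cort (red) sample at 2 days (left) and 4 weeks (right); filled points are kept samples, open points were left out, and bars give mean and SD of the kept samples. At 4 weeks the kept vehicle samples lie between 21.7 and 80.5 CPM and the kept Cort samples between 0 and 7.84.

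Gpr50 was lower after 4 weeks of Cort as well, and from a higher level. The gene is at chrX:71663667-71669257 on the plus strand, in 2 exon blocks. Vehicle samples C02, C03 and C04 had 277, 358 and 513 CPM. Cort samples C07, C08, C09 and C10 had 169.8, 209, 99.98 and 272 CPM. The groups just failed to overlap, the lowest vehicle sample lying close to the highest Cort sample (log2 fold change -1.04 ± 0.34 (SE), Benjamini-Hochberg adjusted P = 0.92). Among the samples left out, vehicle had 510.4 and 214 CPM and Cort had 377, and over all 10 samples the groups overlapped (log2 fold change -0.75 ± 0.35 (SE), Benjamini-Hochberg adjusted P = 0.99). Without vehicle C04 the log2 fold change was -0.76, with an unadjusted edgeR P no longer below 0.05. In the 2 day dataset its vehicle samples had 33.8, 52.2 and 51.2 CPM and its Cort samples 31.7, 49.2, 46.1 and 77.2, which overlapped fully (log2 fold change 0.16 ± 0.32 (SE), Benjamini-Hochberg adjusted P = 0.97).

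Because Gpr50 marks tanycytes, the other tanycyte markers (Rax, Dio2, Vim, Crym, Col25a1) are set beside it. Their summed CPM at 4 weeks was 357 to 368 in kept vehicle samples and 157 to 452 in kept Cort samples, which overlapped. At most 1 of the 5 was at 0 in any kept sample. Of the 4 that were tested 2 were higher and 2 lower in Cort, and none had an edgeR P below 0.05. Log2 fold changes were -1.26 ± 0.61 (SE) for Vim and -0.33 ± 1.03 (SE) for Crym, beside -1.04 for Gpr50. For Dio2 and Col25a1 they were 0.05 ± 0.54 (SE) and 0.25 ± 0.46 (SE). At 2 days the sum was 83.1 to 155 CPM in kept vehicle samples and 111 to 227 in kept Cort samples. In vehicle the sum, like Gpr50, was thus lower at 2 days than at 4 weeks, between datasets that also differed in handling. Dio2 was itself higher in Cort at 2 days (log2 fold change 1.36 ± 0.33 (SE), edgeR, Benjamini-Hochberg adjusted P = 0.44). Neither the sum nor the tally separates tanycyte content from an effect of Cort on these genes, and a change in that content was not tested.

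Gpr173 was the member with an unadjusted P below 0.05 in both datasets, higher in Cort each time. The gene lies at chrX:152343598-152368704 on the minus strand. At 4 weeks vehicle samples C02, C03 and C04 had 4.40, 46.2 and 8.06 CPM. Cort samples C07, C08, C09 and C10 had 135, 65.96, 64.9 and 57.8 CPM, each above each kept vehicle sample (log2 fold change 2.03 ± 0.78 (SE), Benjamini-Hochberg adjusted P = 0.99). The left-out vehicle sample C01 held the highest value of all, as the left-out vehicle samples C01 and C05 had 159 and 44.02 CPM, and the left-out Cort sample had 88.5. With them included the difference shrank to log2 fold change 0.63 ± 0.72 (SE), Benjamini-Hochberg adjusted P = 0.99. Without vehicle C03 the log2 fold change was 3.69 and the unadjusted edgeR P stayed below 0.05, and without vehicle C02, vehicle C04 or Cort C07 it was no longer below 0.05.

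Of the other SREB receptors at 4 weeks, Gpr85 gave a log2 fold change 0.82 ± 0.67 (SE), Benjamini-Hochberg adjusted P = 0.99, and Gpr27 gave a log2 fold change 0.15 ± 0.58 (SE), Benjamini-Hochberg adjusted P = 0.99. At 2 days, vehicle samples C02, C04 and C05 had 35.3, 24.4 and 16.1 CPM of Gpr173 and Cort samples C01, C03, C06 and C10 had 44.4, 38.1, 39.5 and 56.5, the lowest Cort sample standing a little above the highest vehicle sample (log2 fold change 0.83 ± 0.34 (SE), Benjamini-Hochberg adjusted P = 0.77). Vehicle samples C07 and C09, left out, had 15.2 and 64.5 CPM, 1 below and 1 above all kept samples, and the left-out Cort sample had 32.6 (all 10 samples, log2 fold change 0.45 ± 0.37 (SE), Benjamini-Hochberg adjusted P = 0.98).

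Gpr137b, a lysosomal protein, was near the floor in vehicle and higher in Cort at 4 weeks. Vehicle samples C02, C03 and C04 had 0, 0 and 0.896 CPM and Cort samples C07, C08, C09 and C10 had 6.19, 1.67, 6.18 and 8.61. The left-out vehicle samples had 0.918 and 0.419 CPM and the left-out Cort sample 8.50, so that each of the 5 Cort samples lay above each of the 5 vehicle samples. Among the 62 members with any count at 4 weeks it was the 1 member so divided over all 10 samples, beside 0.708% of all 15688 genes with a count. No member was so divided at 2 days, where 0.711% of genes with a count were. Summed over the kept samples there were 2 counts in vehicle and 77 in Cort, a ratio of 20.8 per unit of sequencing with a 95% exact interval of 5.55 to 174 that covers counting error only. The edgeR test gave a log2 fold change of 4.14 ± 1.93 (SE, Benjamini-Hochberg adjusted P = 0.99), and the gene failed the filter when all 10 samples were used. Leaving out 1 sample gave 3.58 to 7.22 in the 4 of 7 fits in which it passed the filter, the highest without vehicle C04, which held both vehicle counts. Of its 50-base stretches 28.6% also occur in transcripts of other genes, Gpr137b-ps foremost, so its counts depend on how such reads were assigned. At 2 days it had 3.48, 1.51 and 7.93 CPM in vehicle and 1.54, 3.37, 4.82 and 2.78 in Cort, fully overlapping.

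Gpr21, an orphan whose gene (chr2:37516332-37520603, plus strand) lies inside Rabgap1 on the same strand and inside Strbp on the other, had no count in the kept vehicle samples and 7.84, 8.33, 2.06 and 46.4 CPM in Cort samples C07, C08, C09 and C10. Against a floor of 3 counts per library this is at least 13.6-fold higher in mean. Without Cort C10, the highest, that bound is 5.12-fold. With the left-out samples the groups overlapped, since vehicle C01 had 52.3 CPM, above every Cort sample, and vehicle C05 and Cort C06 had none. The fitted log2 fold change of 8.67 (edgeR, Benjamini-Hochberg adjusted P = 0.89) depends on the prior count and is no measure of size. Rabgap1 itself had 146 to 325 CPM in vehicle and 160 to 262 in Cort, which overlapped. Strbp had 201 to 281 CPM in kept vehicle samples and 312 to 436 in kept Cort samples, which did not overlap, and the left-out samples lay on the side of their groups. The strand setting of the counting is not known, and the part of either gene in the Gpr21 counts was not tested. At 2 days Gpr21 stayed at or under 2.44 CPM and was not tested.

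Gpr101 passed P below 0.05 at 4 weeks only when all 10 samples were used (log2 fold change 0.70 ± 0.33 (SE), Benjamini-Hochberg adjusted P = 0.99). Kept vehicle samples had 282, 189.8 and 327 CPM and kept Cort samples 328, 376, 239 and 235 (log2 fold change 0.13 ± 0.29 (SE), Benjamini-Hochberg adjusted P = 0.99). The left-out vehicle samples had 168 and 177 CPM, the lowest of all, and the left-out Cort sample had 690.4, the highest. The kept samples overlapped, and the call was made only with the left-out samples included.

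**Figure D4:**
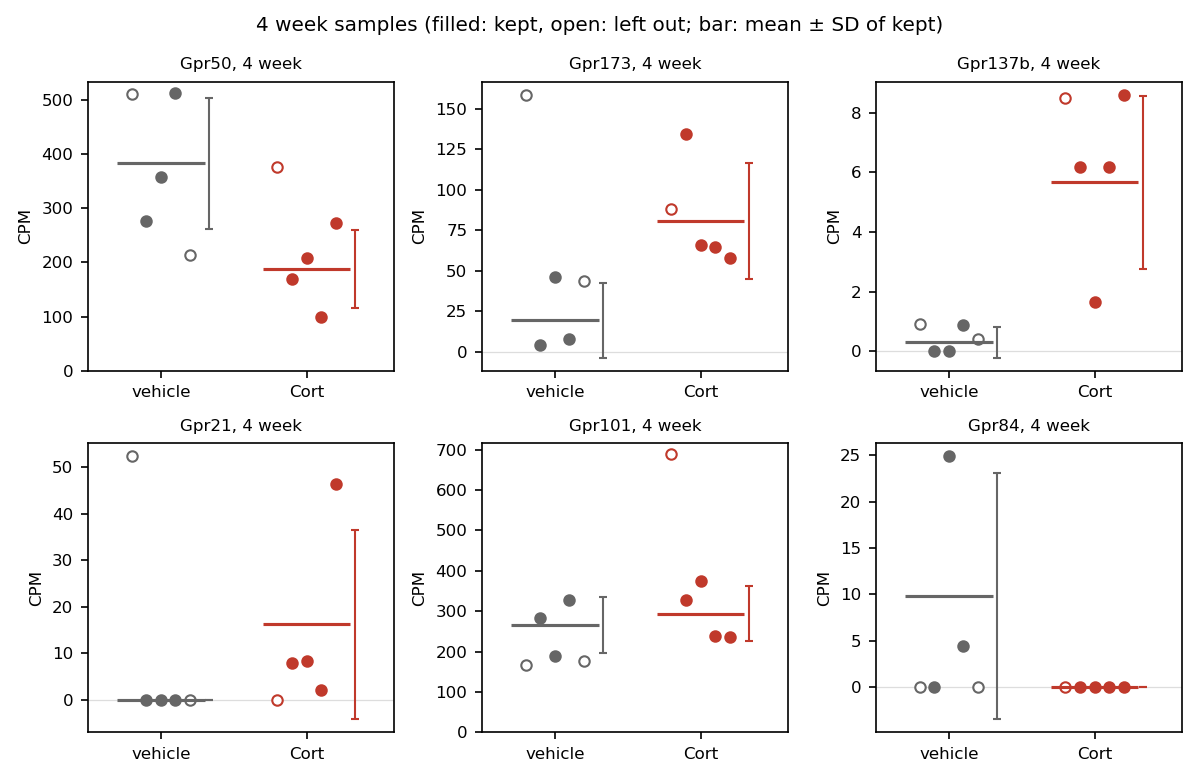
CPM in each 4 week sample for Gpr50, Gpr173, Gpr137b, Gpr21, Gpr101 and Gpr84, with vehicle in grey and Cort in red; filled points are kept samples, open points were left out, and bars give mean and SD of the kept samples. For Gpr50, Gpr173 and Gpr21 an open vehicle point lies within or above the Cort samples, and for Gpr137b all 5 Cort points lie above all 5 vehicle points.

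At 2 days 43 members were tested and 2 had an unadjusted edgeR P below 0.05, Gpr173 higher (described above) and Gpr89 lower in Cort, beside 5.97% of all 12309 genes. None had an adjusted P below 0.1, as 0.065% of all genes did. With all 10 samples 3 of 41 had P below 0.05, Gpr89 and Gpr61 among them, beside 5.28% of 11983 genes. Kept vehicle and Cort samples did not overlap for 2 members, Gpr173 and Gpr180, and for 6.63% of all genes. Over all 10 samples no tested member had groups apart, and 0.801% of all genes did. Summed CPM of 6 oligodendrocyte markers was 339 to 419 in kept vehicle and 421 to 611 in kept Cort samples at 2 days, which did not overlap, while over all 10 samples vehicle reached 684. One of them, Mobp of the myelin sheath, was higher in Cort (log2 fold change 1.72 ± 0.23 (SE), edgeR, Benjamini-Hochberg adjusted P = 0.0032). The part of these cells in the 2 day differences was not tested.

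Gpr89, the Golgi channel, had 37.8, 28.9 and 37.6 CPM in vehicle samples C02, C04 and C05. Cort samples C01, C03, C06 and C10 had 30.2, 8.42, 11.4 and 23.1 CPM, of which 3 were below the vehicle range and C01 within it (log2 fold change -0.91 ± 0.42 (SE), Benjamini-Hochberg adjusted P = 0.82). Vehicle samples left out had 33.2 and 31.9 CPM and the left-out Cort sample 20.9, on the side of their groups (all 10 samples, log2 fold change -0.84 ± 0.37 (SE), Benjamini-Hochberg adjusted P = 0.93). Leaving out vehicle C02, vehicle C05, Cort C03 or Cort C06 left the unadjusted edgeR P no longer below 0.05, with the sign kept. At 4 weeks it had 32.3 ± 27.2 CPM in vehicle and 23.3 ± 10.4 in Cort, and the left-out Cort sample C06 alone had 296 CPM.

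Gpr61, a receptor with Gs activity of its own, had 2.24, 8.19 and 11.6 CPM in vehicle and 6.32, 0.337, 5.89 and 3.98 in Cort samples, overlapping (log2 fold change -0.80 ± 0.84 (SE), Benjamini-Hochberg adjusted P = 0.95). The 2 left-out vehicle samples, at 22.1 and 28.8 CPM, were the highest, and the left-out Cort sample had 2.66, which gave over all 10 samples a log2 fold change -1.88 ± 0.70 (SE), Benjamini-Hochberg adjusted P = 0.92.

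At 4 weeks Gpr61 averaged 7.56 ± 2.78 CPM in vehicle and 2.92 ± 3.39 in Cort (log2 fold change -1.37 ± 1.44 (SE), Benjamini-Hochberg adjusted P = 0.99). Gpr180 had 21.7 ± 11.6 CPM in vehicle and 11.03 ± 2.14 in Cort at 2 days, where each kept Cort sample was below each kept vehicle sample (log2 fold change -0.96 ± 0.47 (SE), Benjamini-Hochberg adjusted P = 0.84). The left-out vehicle samples C07 and C09 had 6.68 and 16.3 CPM, the first below every Cort sample, and the left-out Cort sample had 14.1 (all 10 samples, log2 fold change -0.58 ± 0.46 (SE), Benjamini-Hochberg adjusted P = 0.98).

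**Figure D5:**
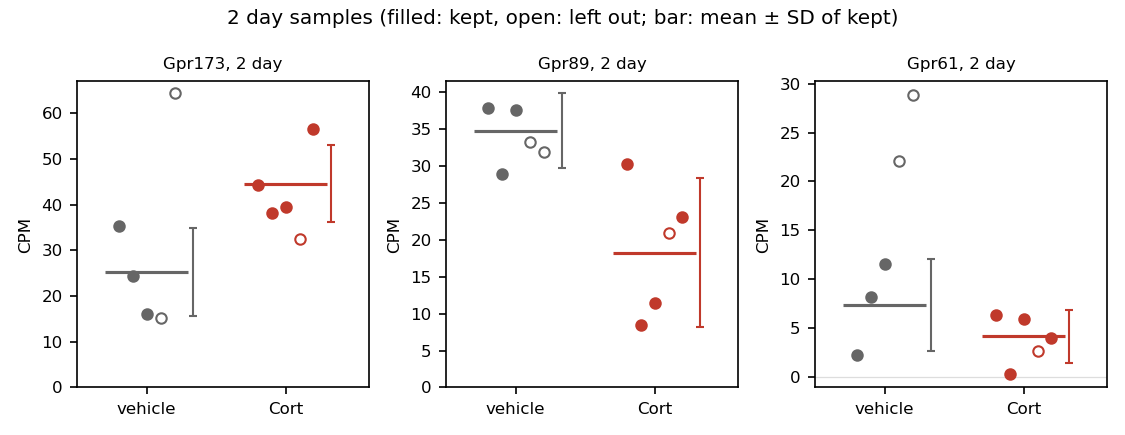
CPM in each 2 day sample for Gpr173, Gpr89 and Gpr61, with vehicle in grey and Cort in red; filled points are kept samples, open points were left out, and bars give mean and SD of the kept samples. For Gpr61 the open vehicle points at 22.1 and 28.8 CPM lie above every other sample, and for Gpr173 1 open vehicle point lies at 64.5 CPM.

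Whether the Cort effect differed between 4 weeks and 2 days was tested as an interaction over the 14 kept samples, for 45 members. An unadjusted edgeR P below 0.05 was found for 5 of them, beside 6.49% of all 12777 genes, and none had an adjusted P below 0.1 by edgeR, as 0.0157% of genes did. Among the 5, Gpr21 had no count in kept 4 week vehicle samples, Gpr84 none in 4 week Cort samples. Gpr137b had 2 counts in the kept 4 week vehicle samples. For this reason the count of 5 is not read against that share. The Cort effect at 4 weeks was lower than at 2 days for Gpr12 by a log2 difference of -2.81 ± 1.24 (SE, Benjamini-Hochberg adjusted P = 0.75) and for Gpr50 by -1.19 ± 0.47 (SE, Benjamini-Hochberg adjusted P = 0.71). It was higher for Gpr137b by 4.63 ± 1.95 (SE, Benjamini-Hochberg adjusted P = 0.74). The others were Gpr21 and Gpr84, for which 1 group had no count and no size is given. Over all 20 samples the unadjusted P was still below 0.05 for Gpr137b and Gpr84, was no longer so for Gpr12 and Gpr50, and was then below 0.05 for Gpr89, making 3 of 41 members beside 6.23% of 12512 genes. That count includes Gpr137b and Gpr84 and is not read against the share either. DESeq2 gave an adjusted P below 0.1 for 1 member, Gpr21, and for 67 of 16627 genes. The mice at 4 weeks were also fasted and refed, and sections, laser and sequencer differed, so the length of treatment cannot be told apart from these.

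Gpr84, a receptor for medium-chain fatty acids on microglia, had 0, 24.9 and 4.48 CPM in the kept 4 week vehicle samples, no count in any of the 5 Cort samples and none in the left-out vehicle samples. At 2 days its kept samples had 2.99, 0.647 and 3.46 CPM in vehicle and 0.512, 1.68, 2.86 and 1.99 in Cort, and the left-out Cort sample C08 had 26.6. Of its exon bases 39.5% also lie in exons of Gm49482. Summed CPM of 7 microglia markers overlapped at 4 weeks, with 147 to 285 in vehicle and 143 to 273 in Cort.

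The spread of the receptors within their groups is given without a test. For members above 5 CPM the median SD of log2 CPM within a group was 0.51 at 2 days and 1.18 at 4 weeks, beside 0.42 and 0.93 over all 10961 genes above 5 CPM in each dataset, whatever their level above it. It was lowest for Gpr165 at 2 days (0.20) and for Gpr101 at 4 weeks (0.37), and highest for Gpr62 (1.35) and Gpr55 (2.44).

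Downstream of such receptors, 70 genes were listed for G alpha subunits, adenylyl cyclases, protein kinase A, receptor kinases and arrestins, cyclic AMP phosphodiesterases and RGS proteins. At 2 days 61 were tested, 1 was higher with P below 0.05 and none lower, and the median log2 fold change was 0.05. At 4 weeks 58 were tested, 2 were higher and 1 lower, with a median of 0.10, where 5.97% of all genes had such a P at 2 days and 4.91% at 4 weeks, and none had an adjusted P below 0.1 in either dataset. The 1 at 2 days was Rgs2, which shortens Gq signals, with 269 ± 25.98 CPM in vehicle and 381 ± 87.7 in Cort (log2 fold change 0.51 ± 0.17, Benjamini-Hochberg adjusted P = 0.61). At 4 weeks Prkar2a, a regulatory subunit of protein kinase A, had 179 ± 11.6 CPM in vehicle and 292 ± 97.1 in Cort (log2 fold change 0.70 ± 0.31, Benjamini-Hochberg adjusted P = 0.99). Arrb1, an arrestin that ends receptor signals, had 103 ± 20.9 CPM in vehicle and 179.9 ± 39.3 in Cort (log2 fold change 0.79 ± 0.36, Benjamini-Hochberg adjusted P = 0.99). With the left-out samples included, Arrb1 gave a log2 fold change of 0.51 and an unadjusted P no longer below 0.05. Rgs12, another brake on G proteins, had 18.9 ± 15.4 CPM in vehicle and 2.49 ± 1.99 in Cort (log2 fold change -2.90 ± 1.26, Benjamini-Hochberg adjusted P = 0.99). No G alpha subunit, adenylyl cyclase or phosphodiesterase had a P below 0.05 in either dataset.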

How the data were processed

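RNA was measured in arcuate nuclei cut by laser from single mice, 10 samples per dataset. Per the authors' methods, RNA was amplified with the Ovation RNA-seq System V2, sequenced as single-end reads of 50 bases, mapped to GRCm38 with Rsubread and counted per gene with featureCounts, and the authors deposited these raw counts. The submitters' processing notes also name CASAVA 1.7 and DESeq2. The annotation release and the settings for strand and for reads that map to several places are not given in the sources used here. The normalised signal deposited by the authors, for the kept samples only, was used for gene symbols and to check names: 5 of 7 columns at 2 days equal the raw counts of a differently named sample, to within 1e-06 of their size factor, and 0 of 7 at 4 weeks. Their fold changes, statistics and p-values from DESeq2 were not used. Groups of columns follow the study's list of samples, and the raw counts' column names were kept throughout.

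Counts were scaled by TMM (edgeR 4.0.16, R 4.3.3), CPM were computed over all 10 samples of a dataset, and Cort was compared with vehicle by the 2-sided quasi-likelihood test after edgeR's filter, over all genes and with no covariate. The limits were an unadjusted P of 0.05 and, as in the study, a Benjamini-Hochberg adjusted P of 0.1. The scripts were tested on simulated data. Alternatives were DESeq2 1.42.0 without and with its fold change prior, scaling by RLE or upper quartile, leaving genes of low count unfiltered, a minimum of 10 counts in each sample, inclusion of all 10 samples, voom with quality weights over them (limma 3.58.1), and leaving out single samples. Exon lengths and overlaps came from GENCODE M21 (GRCm38), in which all 72 members were found under the same symbol. Members, families and lists were chosen with earlier results of these data known. Members are given by sample where the unadjusted edgeR P was below 0.05 in either dataset or the interaction. This was read from the fits with the kept samples and with all samples, and Gpr12 was given regardless. A member that passed only under another alternative was counted there and not named for it. Gpr180 and Gpr3 were named after their values were seen. Some members enter the fits and counts but are not reported here. Samples are separate mice, with no other replicate of a mouse.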

Additional observations from a re-analysis of the deposited data

Results flagged for a closer look

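Samples far from the rest of their group were sought among 9 members in 54 groups of 4 or 5 samples, by the gap to the nearest sample over the range of the group, and 12 were found. The limit is one that about 1 in 20 groups of normally distributed values would pass, and CPM with zeros are not so distributed. The 4 kept Cort samples also lie within the 5 Cort samples, and the members were chosen from these same data. The 12 are therefore not read as an excess. At 2 days Gpr12 stood at 13.5 CPM in Cort sample C01, while the other Cort samples had 3.07 to 5.89 (kept samples alone 5.17 to 5.89). Gpr21 stood at 2.44 CPM in vehicle C05, and Gpr84 at 26.6 CPM in the left-out Cort sample C08. At 4 weeks Gpr173 stood at 159 CPM in the left-out vehicle sample C01 and at 134.5 CPM in Cort C07. Gpr21 stood at 52.3 CPM in vehicle C01, the other 4 vehicle samples having no count, and at 46.4 CPM in Cort C10, both among the 4 kept and among all 5 Cort samples. Gpr61 stood at 7.86 CPM in Cort C08, Gpr84 at 24.9 CPM in vehicle C03, and Gpr89 at 296 CPM in the left-out Cort sample C06.

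The Cort effect differed between 4 weeks and 2 days, by an interaction with an unadjusted edgeR P below 0.05, for 5 members. The log2 differences were 4.63 for Gpr137b, -2.81 for Gpr12 and -1.19 for Gpr50. For Gpr21 (9.95) and Gpr84 (-7.88) the fitted values depend on the prior count, since 1 group had no count. None had an adjusted P below 0.1 by edgeR, and Gpr21 had one by DESeq2. The datasets also differed in feeding, sections, laser and sequencer.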

How the results depend on the processing

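No paired analysis was possible because the columns carry no replicate numbers of the labels. Of 310 values of single members under alternatives, 300 kept their direction. At 2 days 2 of 43 members with P below 0.05 became 4 of 61 with DESeq2 (6.15% of all genes), 4 with its fold change prior (5.43%) and 4 with no filter (7.06%), and 1 to 6 when 1 sample was left out (1 without vehicle C04 or Cort C10, 6 without Cort C03, 4 without Cort C01). At 4 weeks 5 of 38 became 8 of 61 with no filter (6.94% of all genes), 2 of 22 with at least 10 counts in every sample (5.97%), 2 of 33 with all 10 samples (4.9%) and 3 with voom over them (5.36%), and 2 to 4 when 1 was left out (2 without Cort C07). For the interaction 5 of 45 became 1 of 22 with at least 10 counts in every sample (6.09%) and 3 of 41 with all 20 samples (6.23%), and 3 to 7 when 1 was left out. As above, the counts at 4 weeks and for the interaction are not read against these shares. The number with an adjusted P below 0.1 at 4 weeks was 0 by edgeR, 2 by DESeq2 and 1 with its prior, while over all genes it was 5 of 11211, 67 of 15430 and 47 of 15430. For the interaction it was 0 by edgeR and 1 (Gpr21) by DESeq2. Gpr12 at 4 weeks passed that limit with DESeq2 (log2 fold change -3.65) and with its prior (-1.97), and it ranged from -4.37 to -2.86 when 1 sample was left out. Its adjusted P ran from 0.055 to 1.0 over the alternatives. Members above 5 CPM were 35 to 37 at 2 days and 36 to 37 at 4 weeks when 1 sample was left out. Direction was reversed with all 10 samples for Gpr50 at 2 days (-0.063), and for Gpr89 at 4 weeks with all 10 samples (1.698) and with voom over them (0.17). Leaving out 1 sample gave -0.11 to 0.34 for Gpr50 and -0.86 to 0.34 for Gpr137b at 2 days, -0.92 to 0.43 for Gpr89 and -0.053 to 0.31 for Gpr101 at 4 weeks, and -0.0081 to 1.34 for the interaction of Gpr89. The cause of these shifts was not tested. At this depth a member under about 1 CPM cannot be told from absence.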
